A study of Homo sapiens with 27 samples.

Results

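Transcripts of 10 genes of the insulin-like growth factor (IGF) axis were followed in prostate cancer cells with and without knockdown of CPSF1. They comprised 5 IGF-binding proteins (IGFBP2, IGFBP3, IGFBP4, IGFBP5 and IGFBP6), 3 receptors (IGF1R, IGF2R and INSR) and 2 receptor adaptors (IRS1 and IRS2), out of 20268 genes in the count table. They were selected on the basis of a measured value, because IGFBP3 was among the largest rises after CPSF1 knockdown in LNCaP cells, and the other 9 genes were set beside it as members of the same axis. For this reason, the knockdown values from LNCaP cells are given below as a description without a test. The same holds for the hairpin difference and the control level of IGFBP3 in LNCaP. LNCaP95 and 22Rv1 cells, the other hairpin differences and the other control levels of the lines were tested.

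RNA-seq was performed on LNCaP, LNCaP95 and 22Rv1 cells carrying a non-silencing shRNA (CTRL sh) or 1 of 2 shRNAs against CPSF1 (CPSF1 sh1 and CPSF1 sh2), giving 9 groups of 3 biological replicates (27 libraries). All 3 are established human prostate cancer lines. LNCaP cells are hormone-sensitive, LNCaP95 cells are their hormone-insensitive derivative, and 22Rv1 cells are hormone-insensitive. Every group, the controls included, carried a pGIPZ lentiviral hairpin and was selected with puromycin, at 2 µg/mL for LNCaP and 22Rv1 cells and 1 µg/mL for LNCaP95 cells. Cells were seeded at 500000 per well and grown for 72 h. LNCaP95 cells were kept in phenol red-free medium and the other lines in standard RPMI. In comparisons with LNCaP95, the line, its medium and its puromycin dose therefore cannot be told apart. LNCaP and 22Rv1 cells shared medium and dose. Each group was a puromycin-selected population of cells in culture, without stroma.

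IGF1 and IGF2 are secreted peptide ligands that activate IGF1R, a receptor tyrosine kinase closely related to the insulin receptor INSR. The activated receptors phosphorylate the adaptors IRS1 and IRS2, which recruit PI3-kinase and thereby activate AKT and mTOR. The binding proteins hold the ligands outside the cell and control their access to the receptor, and IGFBP3 is the main carrier of IGFs in blood. IGF2R, the cation-independent mannose 6-phosphate receptor, internalises IGF2 for degradation and does not signal through IRS adaptors.

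CPSF1 is the scaffold subunit of the complex that recognises the AATAAA hexamer, or its common variant ATTAAA, ahead of the 3′ end of an mRNA and directs cleavage and polyadenylation. The annotated 3′ ends of the members were therefore read from the GRCh37 genome, the build of the count table. On the gene's own strand, the last 50 bases of the annotated transcript end held AATAAA in 6 members (IGFBP3, IGFBP5, IGFBP6, IGF1R, IGF2R and IRS2), ATTAAA without AATAAA in 3 (IGFBP2, INSR and IRS1), and neither in IGFBP4. Among 20255 genes of the table read the same way, 56.6% held AATAAA and 69.4% held either hexamer. The 5 sequences below belong to the members with the largest changes. They are written 5′ to 3′ on the coding strand, with the hexamer in capitals and 12 bases on either side, and the hexamer is the last copy in the window.
IGFBP3 (chr7:45951958-45951987, minus strand): ttataaatagtaAATAAAgtttttaccatt
IGFBP5 (chr2:217536832-217536861, minus strand): aagcatttatttAATAAAgttatgcattca
IGF1R (chr15:99507727-99507756, plus strand): tggtttaagttaAATAAAataattctgtat
IRS1 (chr2:227596034-227596063, minus strand): aacaaactgccaATTAAAttttgcggagac
IRS2 (chr13:110406193-110406222, minus strand): catatgcaataaAATAAAgtacattattta

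IRS1 carried the variant hexamer and the other 4 the canonical one. A hexamer is a match of letters and does not show which site was used. By position, IGFBP2 and IGFBP5 lie tail to tail on chromosome 2, their annotated ends 7.67 kb apart with no other gene of the table between them, IGFBP2 on the plus strand and IGFBP5 on the minus strand. The nearest gene that ends upstream of IGFBP3 on its strand, AC011294.3, lies 752 kb away, and for IGF1R the upstream neighbour ARRDC4 lies 675 kb away. The nearest upstream neighbour of any member was TENC1, 33.1 kb ahead of IGFBP6.

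The libraries held 8515624 to 15904518 counts on genes. CPSF1 itself was lower in all 6 knockdown libraries of each line, with a log2 fold change of -0.65 ± 0.06 (SE) for LNCaP, -0.89 ± 0.08 for LNCaP95 and -0.50 ± 0.06 for 22Rv1, so that every group retained part of its CPSF1 mRNA. The luminal keratins KRT8 and KRT18 were expressed in every library, at 258 CPM (library-scaled counts, defined below) or more. The summed level of 7 luminal markers, these keratins included, was lower in knockdown than in CTRL sh libraries of LNCaP (3314 to 3556 against 4417 to 4468 CPM) and LNCaP95 (3296 to 3541 against 5289 to 5527 CPM) and overlapped in 22Rv1 (1459 to 1712 and 1587 to 1616 CPM). The basal markers KRT5 and TP63 and the leukocyte markers PTPRC and CD3E stayed below 0.4 CPM throughout. The third leukocyte marker of the list, CD68, moved with knockdown. The summed leukocyte list was 3.04 to 3.67 CPM in CTRL sh and 10.3 to 18.1 CPM in knockdown libraries of LNCaP, 6.50 to 9.57 CPM against 16.2 to 34.1 CPM in LNCaP95, and 0.938 to 1.62 CPM against 1.81 to 7.05 CPM in 22Rv1. The summed fibroblast list of 4 genes, in which COL1A1 led, was lower in knockdown than in CTRL sh libraries of LNCaP (13.6 to 16.9 against 22.3 to 26.7 CPM) and 22Rv1 (14.9 to 19.2 against 22.1 to 23.8 CPM) and overlapped in LNCaP95. The summed basal list, led by KRT14, was higher with knockdown in LNCaP (3.83 to 6.31 against 1.28 to 2.15 CPM). In LNCaP95 it was 1.66 to 3.07 CPM with CTRL sh, 2.43 to 3.52 CPM with CPSF1 sh1 and 4.66 to 5.91 CPM with CPSF1 sh2, and it was below 0.5 CPM in 22Rv1. The summed neuroendocrine list, led by SYP, was 60.5 to 73.1 CPM with knockdown and 77.7 to 84.8 CPM with CTRL sh in 22Rv1, and at most 6.28 CPM in the other lines. The part of these shifts in the results below was not tested. In bulk RNA, fewer expressing cells and less RNA per cell cannot be told apart, and this holds for each value below.

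IGFBP3 spanned the widest range of the members above background in all 9 groups. Levels are CPM, the counts of a gene scaled to 1e6 counts of its library, after TMM scaling over the 27 libraries, which corrects for library composition. In LNCaP cells, IGFBP3 was at 6.99, 6.58 and 6.45 CPM in the CTRL sh libraries, at 49.5, 53.1 and 59.4 CPM with CPSF1 sh1, and at 37.9, 40.4 and 37.0 CPM with CPSF1 sh2. The control libraries were thus the lowest of all 27, at 72 to 77 counts each, and none of the knockdown libraries came near them. In LNCaP95 cells, the CTRL sh libraries held 46.7, 46.7 and 41.6 CPM, the CPSF1 sh1 libraries 75.5, 86.3 and 78.7 CPM, and the CPSF1 sh2 libraries 405, 418 and 378 CPM. In 22Rv1 cells, the CTRL sh libraries held 165, 171 and 165 CPM, the CPSF1 sh1 libraries 139, 134 and 153 CPM, and the CPSF1 sh2 libraries 250, 274 and 258 CPM. Hence the hairpins moved IGFBP3 to different heights in LNCaP95 and to opposite sides of the control in 22Rv1 cells, and within each of the 9 groups the replicates lay close together.

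**Figure D1:**
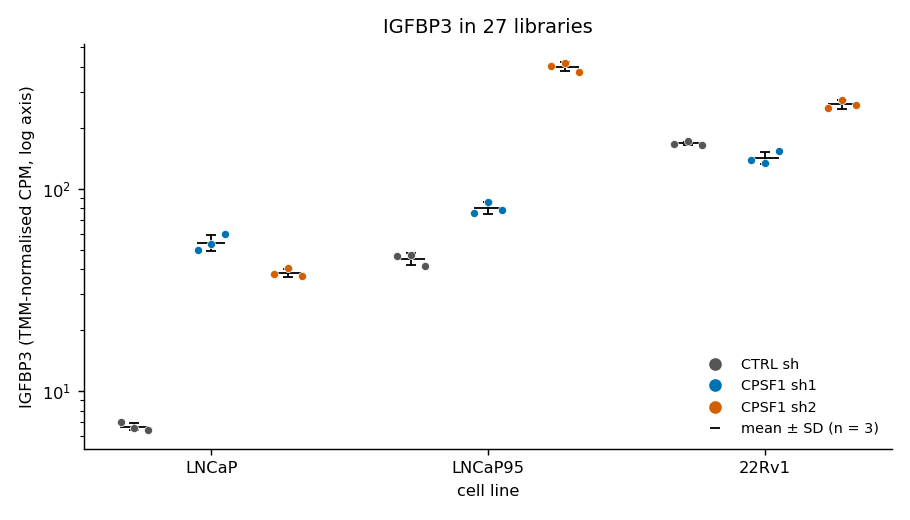
IGFBP3 in TMM-normalised CPM (log axis) in each of 27 libraries, by cell line (x axis) and hairpin (colour), with the mean and SD of 3 replicates. The 9 groups do not overlap, from 6.67 CPM in LNCaP CTRL sh to 400 CPM in LNCaP95 CPSF1 sh2, and in 22Rv1 cells the CPSF1 sh1 libraries lie below and the CPSF1 sh2 libraries above the controls.

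Ordered by their means, the 9 groups ran from LNCaP CTRL sh (6.67 ± 0.28 CPM, SD, n = 3) through LNCaP CPSF1 sh2 (38.4 ± 1.8), LNCaP95 CTRL sh (45.0 ± 2.9), LNCaP CPSF1 sh1 (54.0 ± 5.0), LNCaP95 CPSF1 sh1 (80.1 ± 5.5), 22Rv1 CPSF1 sh1 (142 ± 9.9), 22Rv1 CTRL sh (167 ± 3.6) and 22Rv1 CPSF1 sh2 (260 ± 12) to LNCaP95 CPSF1 sh2 (400 ± 20). The ranges of neighbouring groups in this order did not overlap. Knockdown brought LNCaP cells to about the level that LNCaP95 cells had with the control hairpin, with CPSF1 sh2 just under and CPSF1 sh1 just over it.

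As a description of the contrast that selected it, IGFBP3 was higher in LNCaP knockdown cells by 2.80 ± 0.17 (log2 fold change ± SE), a 6.94-fold difference and the third-largest rise of 11096 genes. In LNCaP95 cells, IGFBP3 rose by 2.44 ± 0.64 (5.41-fold, adjusted p = 0.00465 in edgeR's quasi-likelihood test, higher in 6 of 6 knockdown libraries) and ranked 17 of 11143 genes by rise. The pooled group held hairpins of unlike height: against CTRL sh CPSF1 sh1 gave 0.85 ± 0.06 and CPSF1 sh2 gave 3.18 ± 0.06. In 22Rv1 cells, the pooled change of 0.28 ± 0.21 did not pass the threshold (adjusted p = 0.352 in edgeR), and against CTRL sh IGFBP3 was at -0.23 ± 0.05 under CPSF1 sh1 and at 0.65 ± 0.05 under CPSF1 sh2. These hairpin values share the 3 CTRL sh libraries of their line.

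The hairpins were also compared directly, CPSF1 sh2 against CPSF1 sh1. The control libraries were not part of this contrast, but stayed in the fit and entered its filter, scaling and estimate of spread. IGFBP3 was higher with CPSF1 sh2 than with CPSF1 sh1 by 2.33 ± 0.05 in LNCaP95 (5.04-fold, adjusted p = 9.99e-18 in edgeR) and by 0.88 ± 0.05 in 22Rv1 cells (1.84-fold, adjusted p = 1.20e-07 in edgeR). In LNCaP cells the order was the opposite, with CPSF1 sh2 lower by 0.48 on the log2 scale (0.717-fold, SE 0.07). The same LNCaP libraries entered the selection of IGFBP3, so this LNCaP value is a description without a test. CPSF1 mRNA itself differed between the hairpins by 0.07 ± 0.07 in 22Rv1 and by 0.0004 ± 0.084 in LNCaP95, and by -0.14 ± 0.05 in LNCaP, none of which passed the threshold. In each line the measured difference was larger for IGFBP3 than for the mRNA that the hairpins target. CPSF1 was compared here as mRNA alone, and the part of knockdown depth in the IGFBP3 differences was not tested.

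IGFBP2, a second circulating carrier of IGFs, was the most abundant of the 5 per kb of exon in 8 of 9 groups and moved little. Between 110 and 118 CPM were measured in LNCaP CTRL sh libraries, against 88.7 to 97.7 CPM with CPSF1 sh1 and 77.4 to 82.8 CPM with CPSF1 sh2, a difference of -0.40 ± 0.06 on pooling the hairpins. Within LNCaP cells it was lower with CPSF1 sh2 than with CPSF1 sh1 by 0.20 on the log2 scale (SE 0.05, adjusted p = 0.00746 in edgeR). The knockdown changes (-0.03 ± 0.08 for LNCaP95, -0.02 ± 0.06 for 22Rv1) did not pass the threshold (adjusted p = 0.799 and 0.820 in edgeR), and the ranges of knockdown and control libraries overlapped in both lines.

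IGFBP5, a binding protein that also attaches to the extracellular matrix, passed the expression filter in LNCaP95 cells alone. There the CTRL sh libraries held 12.6, 11.2 and 12.1 CPM, the CPSF1 sh1 libraries 46.6, 50.2 and 46.1 CPM, and the CPSF1 sh2 libraries 45.4, 59.0 and 43.3 CPM. All 6 knockdown libraries lay above the controls at one common height. The rise of 2.04 ± 0.11 (4.12-fold, adjusted p = 2.89e-08 in edgeR) ranked 30 of 11143 genes, and the hairpins differed by only 0.07 ± 0.08 (adjusted p = 0.581 in edgeR), unlike for IGFBP3 in the same cells. In 22Rv1 cells, IGFBP5 missed the filter, which asks for more than 2 CPM in each of the 9 libraries, with 27, 31 and 22 counts in the CTRL sh, 10, 17 and 9 in the CPSF1 sh1 and 14, 9 and 18 in the CPSF1 sh2 libraries. There the control libraries were the highest. With edgeR's own expression filter in place of the 2 CPM filter, the change was -1.01 with an adjusted p of 0.00604. LNCaP cells held 0 to 17 counts of IGFBP5 per library and were not tested.

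The remaining binding proteins, IGFBP4 and IGFBP6, were not detectable above a few counts. IGFBP4 had 0 to 3 counts per library, with 17 of 27 libraries at 0, and IGFBP6 had 0 to 6 counts, with 7 of 27 at 0. A count of 0 allows up to 3 counts, or 0.189 to 0.352 CPM at the depths of these libraries, by counting error alone.

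To compare binding proteins with each other, CPM were divided by exon length in kb. On this scale, IGFBP3 made up 2.69% ± 0.12 (SD, n = 3) of the summed level of the 5 binding proteins in LNCaP CTRL sh libraries, 21.6% ± 1.0 with CPSF1 sh1 and 18.6% ± 0.8 with CPSF1 sh2. The share in LNCaP95 was 17.7%, 25.6% and 64.8% in the same order of hairpins, and that in 22Rv1 was 27.7%, 24.6% and 38.4%. IGFBP3 thus exceeded IGFBP2 per kb only in LNCaP95 cells with CPSF1 sh2, where its level was 2.14 ± 0.14 times that of IGFBP2, against 0.028 ± 0.001 times in LNCaP CTRL sh cells. Summed over the 5, LNCaP cells held 64.1, 64.5 and 53.6 CPM per kb, LNCaP95 cells 66.1, 81.0 and 160 CPM per kb, and 22Rv1 cells 156, 150 and 176 CPM per kb. LNCaP cells therefore held about as much binding protein mRNA with CPSF1 sh1 as with CTRL sh, but in a different mixture.

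**Figure D2:**
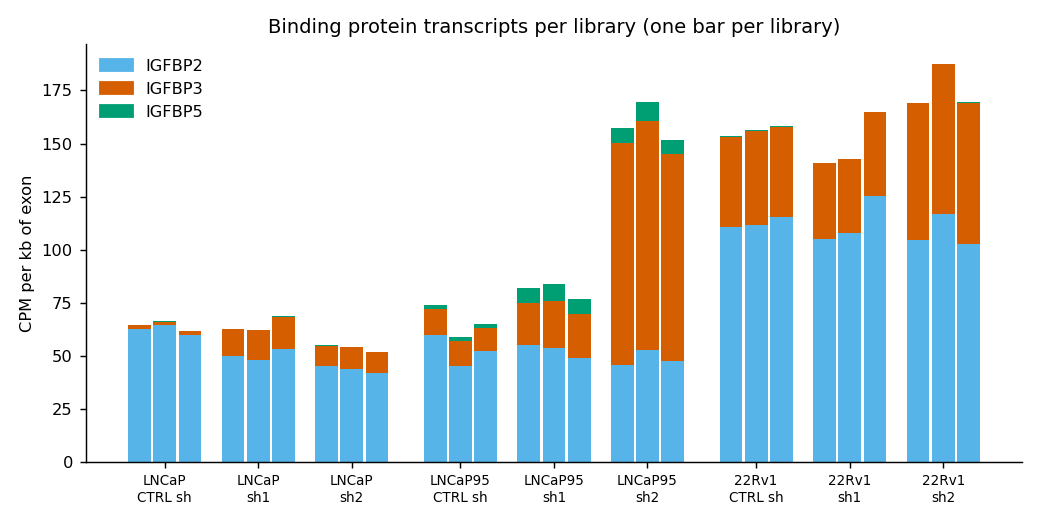
IGFBP2, IGFBP3 and IGFBP5 in CPM per kb of exon (y axis), stacked, with 1 bar for each of the 27 libraries grouped by line and hairpin (x axis). IGFBP2 makes up most of each bar, except in the 3 LNCaP95 CPSF1 sh2 bars, where IGFBP3 has 64.8% on average.

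IGF1R, the signalling receptor for IGF1 and IGF2, moved in opposite directions in LNCaP and its derivative. In LNCaP cells, it was at 40.7, 44.1 and 43.3 CPM with CTRL sh, at 127, 130 and 136 CPM with CPSF1 sh1, and at 125, 143 and 142 CPM with CPSF1 sh2. The groups were far apart, and the difference was 1.66 ± 0.06 (3.16-fold, 56th of 11096 genes by rise). In LNCaP95 cells, it was at 420, 372 and 356 CPM with CTRL sh, at 258, 270 and 244 CPM with CPSF1 sh1, and at 274, 266 and 257 CPM with CPSF1 sh2. All 6 knockdown libraries lay below the controls, and IGF1R fell by 0.52 on the log2 scale (0.696-fold, SE 0.05, adjusted p = 4.39e-06 in edgeR). Even after these shifts, LNCaP95 cells with knockdown had more IGF1R than LNCaP cells with knockdown. In 22Rv1 cells, the libraries held 50.3, 52.1 and 53.2 CPM with CTRL sh, 63.1, 63.2 and 51.1 CPM with CPSF1 sh1, and 71.8, 71.7 and 68.9 CPM with CPSF1 sh2. IGF1R rose by 0.33 ± 0.09 (1.26-fold, adjusted p = 0.0143 in edgeR), with 1 CPSF1 sh1 library inside the range of the controls. This call was lost with CPSF1 sh1 libraries alone (0.20, adjusted p = 0.111 in edgeR), and without CTRL sh replicate 1 (adjusted p = 0.0733) or replicate 2 (adjusted p = 0.0520). Between the hairpins IGF1R was higher with CPSF1 sh2 by 0.26 ± 0.07 in 22Rv1 cells (adjusted p = 0.0276 in edgeR), a call lost when any 1 of the 3 CPSF1 sh2 libraries was left out.

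INSR, the insulin receptor, was lower with knockdown in LNCaP and LNCaP95 cells. Its range in LNCaP was 53.1 to 60.4 CPM with CTRL sh and 37.7 to 48.1 CPM over the 6 knockdown libraries, a difference of -0.37 ± 0.07. In LNCaP95 it was 69.5 to 79.5 CPM with CTRL sh and 45.1 to 53.5 CPM with knockdown, and INSR fell by 0.53 on the log2 scale (SE 0.06, adjusted p = 1.19e-05 in edgeR). The 22Rv1 ranges of 57.5 to 59.6 and 51.7 to 58.5 CPM overlapped, and the change of -0.10 ± 0.05 did not pass (adjusted p = 0.198 in edgeR). Per kb of exon and within a library, IGF1R had 0.54 ± 0.04 times the level of INSR in LNCaP CTRL sh cells and 2.19 ± 0.03 and 2.23 ± 0.12 times that level with CPSF1 sh1 and CPSF1 sh2. With CTRL sh, CPSF1 sh1 and CPSF1 sh2, this ratio took values of 3.69, 3.47 and 4.01 (LNCaP95) and 0.63, 0.78 and 0.91 (22Rv1).

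IGF2R, the clearance receptor, differed between the hairpins in LNCaP and LNCaP95 cells. It was higher with CPSF1 sh2 than with CPSF1 sh1 in LNCaP (0.23 ± 0.03, adjusted p = 1.08e-04 in edgeR) and LNCaP95 cells (0.32 ± 0.05, adjusted p = 2.27e-05 in edgeR), while the difference of 0.22 ± 0.07 in 22Rv1 cells did not pass (adjusted p = 0.0646 in edgeR). In LNCaP cells, CTRL sh libraries held 489, 513 and 511 CPM, CPSF1 sh1 libraries 442, 442 and 435 CPM, and CPSF1 sh2 libraries 497, 513 and 521 CPM. Here the CPSF1 sh1 libraries lay below the controls, and the CPSF1 sh2 libraries overlapped them, with 1 above their range. In LNCaP95 cells, the values were 304, 282 and 273 CPM, then 304, 311 and 292 CPM, then 383, 352 and 391 CPM, so that only CPSF1 sh2 stood clear of the controls. The pooled rise of 0.27 ± 0.09 passed in LNCaP95 (adjusted p = 0.0214 in edgeR) but not with CPSF1 sh1 alone (0.10, adjusted p = 0.0691), nor without CTRL sh replicate 2 (adjusted p = 0.0702) or replicate 3 (adjusted p = 0.0855). The pooled difference was -0.07 ± 0.06 in LNCaP, and the change of 0.06 ± 0.08 in 22Rv1 cells did not pass (adjusted p = 0.605 in edgeR).

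IRS1, an adaptor that carries signals from both IGF1R and INSR to PI3-kinase, was higher with knockdown in LNCaP and lower in the other lines. In LNCaP cells, it was at 13.7, 14.2 and 15.5 CPM with CTRL sh, at 26.0, 25.4 and 29.2 CPM with CPSF1 sh1, and at 25.0, 28.9 and 25.6 CPM with CPSF1 sh2, a difference of 0.90 ± 0.08. In LNCaP95 cells, it was at 68.1, 56.2 and 58.1 CPM with CTRL sh, at 50.4, 47.5 and 47.8 CPM with CPSF1 sh1, and at 48.1, 49.6 and 49.0 CPM with CPSF1 sh2. IRS1 fell by 0.30 on the log2 scale (0.815-fold, SE 0.06, adjusted p = 9.06e-04 in edgeR). In 22Rv1 cells, it was at 85.8, 86.7 and 81.4 CPM with CTRL sh, at 56.8, 61.9 and 52.8 CPM with CPSF1 sh1, and at 53.5, 50.7 and 47.7 CPM with CPSF1 sh2. Here IRS1 fell by 0.64 (0.640-fold, SE 0.07, adjusted p = 2.73e-05 in edgeR), the largest change of any tested member in these cells. Knockdown and control libraries did not overlap in any of the 3 lines, and no difference between the hairpins passed for IRS1 in any line, although in 22Rv1 it passed without CPSF1 sh1 replicate 3 (-0.22, adjusted p = 0.0164 in edgeR). Its 6 knockdown libraries lay between 47.5 and 50.4 CPM in LNCaP95 and between 47.7 and 61.9 CPM in 22Rv1 cells.

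IRS2, the second adaptor, fell most in LNCaP95 cells. Its libraries held 46.0, 38.6 and 48.2 CPM with CTRL sh, 19.0, 20.9 and 20.6 CPM with CPSF1 sh1, and 22.0, 22.8 and 20.6 CPM with CPSF1 sh2, and IRS2 fell by 1.05 on the log2 scale (0.482-fold, SE 0.08, adjusted p = 4.50e-07 in edgeR). In 22Rv1 cells, where it was most abundant, its libraries held 136, 147 and 138 CPM, then 115, 117 and 114 CPM, then 95.8, 104 and 96.0 CPM. The 3 groups lay in steps without overlap, and IRS2 fell by 0.39 (0.764-fold, SE 0.07, adjusted p = 8.42e-04 in edgeR). CPSF1 sh2 was lower than CPSF1 sh1 by 0.22 (SE 0.05, adjusted p = 0.0109 in edgeR), a call lost without CPSF1 sh2 replicate 1 (adjusted p = 0.0636) or replicate 3 (adjusted p = 0.0639). In LNCaP cells, 8 of 9 libraries lay between 6.84 and 8.15 CPM and 1 CPSF1 sh1 library (replicate 3) at 17.7 CPM. The pooled difference of 0.24 ± 0.24 became -0.02 without that library. Per kb, IRS2 had 1.04 ± 0.12 times the level of IRS1 in LNCaP95 CTRL sh cells and 0.59 ± 0.05 and 0.63 ± 0.03 times with the hairpins.

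**Figure D3:**
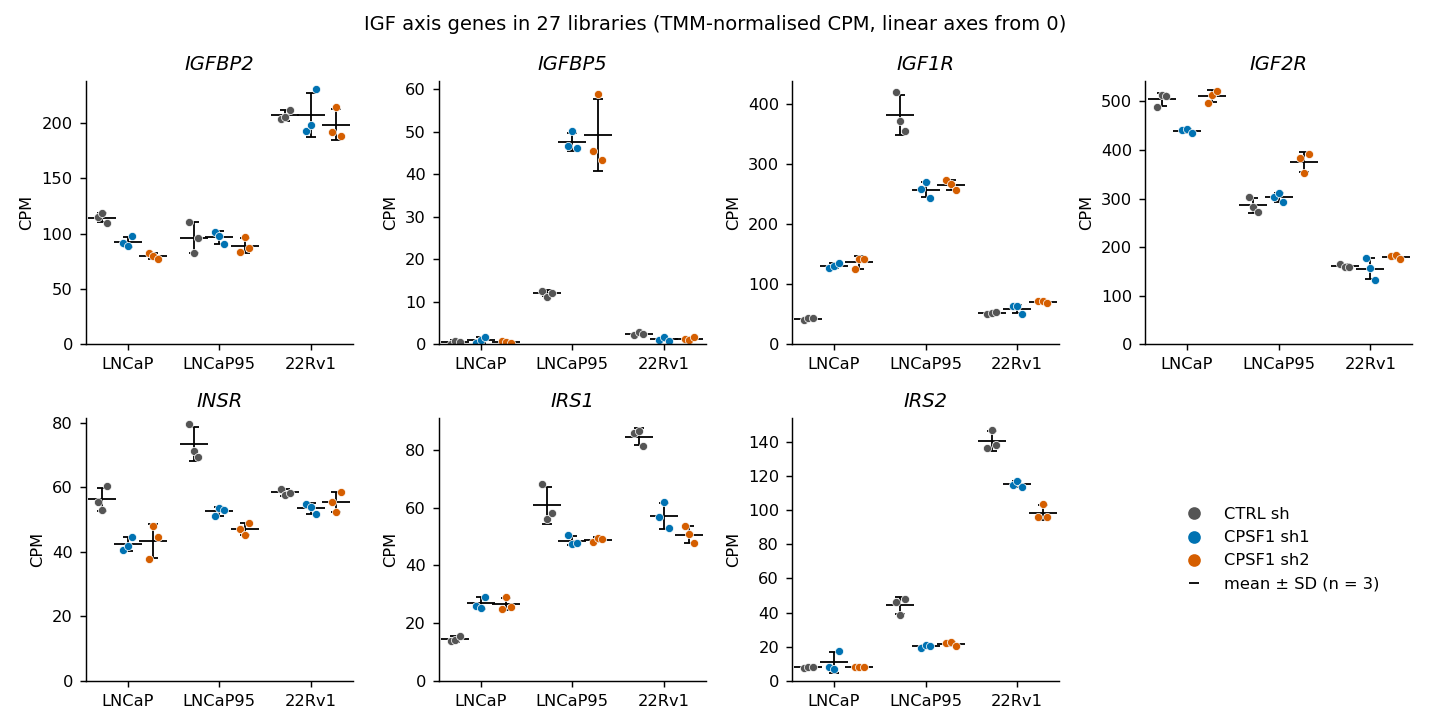
The 7 other detected members in TMM-normalised CPM (linear axes from 0) in each of 27 libraries, by line (x axis) and hairpin (colour), with the mean and SD of 3 replicates. IGF1R and IRS1 are higher with knockdown in LNCaP and lower in LNCaP95, IGFBP5 is at 43.3 to 59.0 CPM in LNCaP95 knockdown libraries and low elsewhere, and IRS2 steps down in LNCaP95 and 22Rv1.

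Counted over the members, 7 of 8 tested passed in LNCaP95 cells, 3 higher (IGFBP3, IGFBP5 and IGF2R) and 4 lower (IGF1R, INSR, IRS1 and IRS2), against 66.9% of all 11143 genes tested. In 22Rv1 cells, 3 of 7 passed, IGF1R higher and IRS1 and IRS2 lower, against 26.9% of 11728 genes. In LNCaP cells, whose contrast selected the members, 5 of 7 were past the threshold, 3 higher and 2 lower, beside 62.1% of 11096 genes, and nothing is read from that count. With so many genes changing in LNCaP95 and so few members tested, nothing is read from the LNCaP95 and 22Rv1 counts either. The members' median change stood at 0.24 for LNCaP, -0.16 for LNCaP95 and -0.02 for 22Rv1, beside medians within 0.01 of 0 over all genes. Knockdown and control libraries did not overlap for 5 of 7 members in LNCaP (55.6% of all genes), 6 of 8 in LNCaP95 (60.3%) and for 2 of 7 in 22Rv1 (28.1%).

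**Figure D4:**
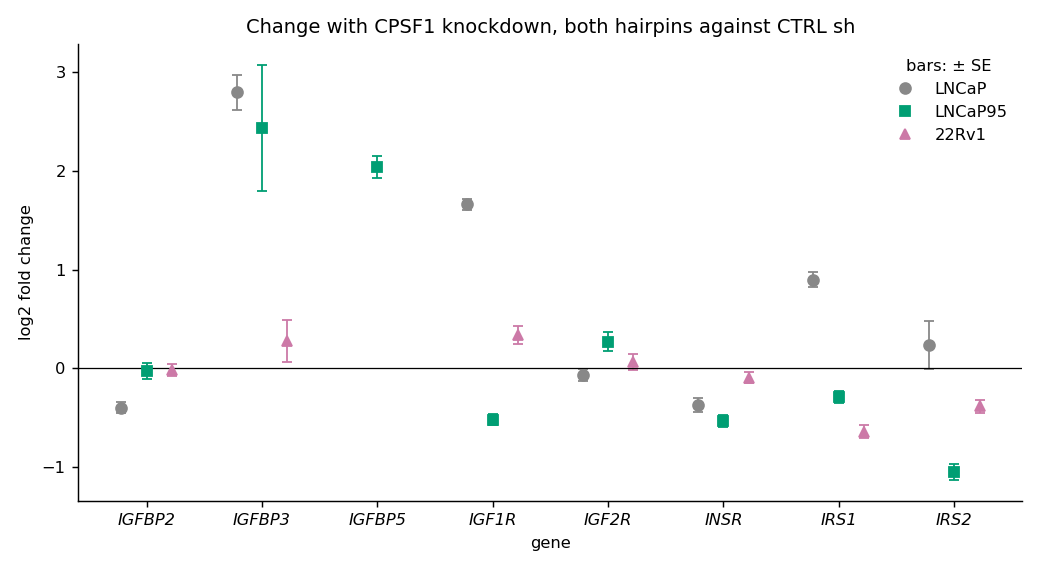
Log2 fold change with CPSF1 knockdown (y axis, both hairpins against CTRL sh, ± SE) of 8 members (x axis) in LNCaP (description, since this contrast selected the members), LNCaP95 and 22Rv1. IGFBP3 is at 2.80, 2.44 and 0.28, IGF1R at 1.66, -0.52 and 0.33 and IRS1 at 0.90, -0.30 and -0.64 in the 3 lines, and IGFBP5 passed the filter in LNCaP95 alone.

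Between the hairpins, 2 of 8 members passed in LNCaP95 (IGFBP3 and IGF2R, beside 34.1% of all genes) and 3 of 7 in 22Rv1 cells (IGFBP3, IGF1R and IRS2, beside 11.3%). In LNCaP cells IGFBP2 and IGF2R passed, beside 14.8% of all genes. IGFBP3 was left out there, because its LNCaP libraries had entered its selection. IGFBP3 was the member that passed in both LNCaP95 and 22Rv1 cells. The median difference between the hairpins over the members stood at -0.003 (LNCaP), 0.06 (LNCaP95) and 0.06 (22Rv1), beside medians within 0.01 of 0 over all genes.

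**Figure D5:**
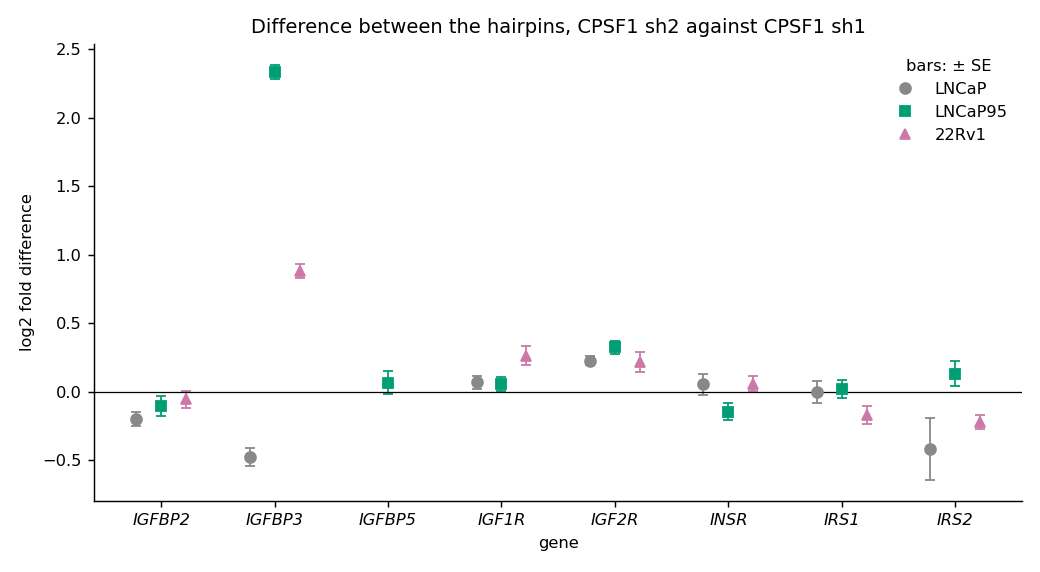
Log2 fold difference between the hairpins (y axis, CPSF1 sh2 against CPSF1 sh1, ± SE) of 8 members (x axis) in the 3 lines. IGFBP3 stands at -0.48 in LNCaP, 2.33 in LNCaP95 and 0.88 in 22Rv1, whereas the other members lie between -0.42 (IRS2 in LNCaP, not past the threshold) and 0.32 (IGF2R in LNCaP95).

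The knockdown effect was compared between LNCaP95 and 22Rv1 cells in a fit of both lines. It differed for 5 of the 7 members that passed the filter in both lines, beside 48.2% of 12357 genes. Relative to LNCaP95, the effect in 22Rv1 cells was lower for IGFBP3 (-2.16 ± 0.67, adjusted p = 0.0113 in edgeR) and IRS1 (-0.35 ± 0.10, adjusted p = 0.00458 in edgeR). It was higher for IGF1R (0.86 ± 0.11, adjusted p = 2.04e-06 in edgeR), IRS2 (0.66 ± 0.11, adjusted p = 3.41e-05 in edgeR) and INSR (0.44 ± 0.08, adjusted p = 2.09e-04 in edgeR). The effects on IGFBP2 and IGF2R were not shown to differ (adjusted p = 0.998 and 0.208 in edgeR). CPSF1 itself fell less in 22Rv1 than in LNCaP95 cells, by 0.39 ± 0.11 on the log2 scale (adjusted p = 0.00508 in edgeR), and the part of this in the member differences was not tested. IGFBP5 entered this fit through LNCaP95 alone, so its difference of -3.05 ± 0.27 is given without a test. The LNCaP effects were not tested against those of the other lines.

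Control levels were compared between the lines in the CTRL sh libraries, leaving IGFBP5 out of the counts, because it passed the filter of this fit only through lines where it is high, and IGFBP3 out of those with LNCaP. In these counts, 6 of 6 members differed between LNCaP95 and LNCaP cells (77.7% of all genes did), 5 of 6 between 22Rv1 and LNCaP cells (84.3%) and 7 of 7 between 22Rv1 and LNCaP95 cells (86.3%). With shares this high over all genes, the counts say little about the members, and their sizes are given instead. The IGFBP3 difference from LNCaP, whose controls entered the selection, was 2.75 ± 0.08 for LNCaP95 and 4.65 ± 0.07 for 22Rv1, and 22Rv1 exceeded LNCaP95 by 1.90 ± 0.05 (adjusted p = 1.38e-22 in edgeR). IGF1R was 8.92-fold higher in LNCaP95 than in LNCaP cells (3.16 ± 0.06, adjusted p = 6.62e-26 in edgeR). IGFBP5 had 172, 124 and 124 counts in LNCaP95 against 0, 9 and 7 counts in LNCaP controls. The adaptors were higher in steps from LNCaP over LNCaP95 to 22Rv1. IRS2 was 5.49-fold higher in LNCaP95 than in LNCaP cells (adjusted p = 1.76e-18 in edgeR) and 3.20-fold higher again in 22Rv1 (adjusted p = 1.32e-19 in edgeR), and IRS1 was 4.20-fold (adjusted p = 2.04e-18 in edgeR) and 1.40-fold higher (adjusted p = 4.64e-08 in edgeR). IGF2R ran the other way, at 0.565-fold in LNCaP95 (adjusted p = 3.15e-16 in edgeR) and 0.321-fold in 22Rv1 cells (adjusted p = 9.47e-23 in edgeR) of its LNCaP level. The INSR difference of 0.06 ± 0.06 between 22Rv1 and LNCaP cells was the 1 among these that did not pass (adjusted p = 0.337 in edgeR).

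Of the ligands, IGF1 was the one that passed the filter, in LNCaP95 and 22Rv1 cells. It was at 2.94 to 3.70 CPM in LNCaP95 CTRL sh libraries, 4.73 to 6.27 CPM with CPSF1 sh1 and 7.03 to 8.91 CPM with CPSF1 sh2, and rose by 1.06 ± 0.21 (adjusted p = 5.98e-04 in edgeR). In 22Rv1 cells it was at 11.5 to 14.2, 17.8 to 22.5 and 24.4 to 25.7 CPM, and rose by 0.85 ± 0.12 (adjusted p = 2.06e-04 in edgeR). LNCaP CTRL sh libraries held 0.512 to 1.07 CPM, under the filter, against 3.73 to 6.28 CPM with knockdown. IGF1 was thus higher in all 6 knockdown libraries of each line. IGF2 had counts in every library but reached at most 2.05 CPM, and INS at most 1 count in any library.

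Among 50 other genes of the axis, 25 of 37 tested passed in LNCaP95 (11 higher and 14 lower, beside 66.9% of all genes) and 11 of 37 in 22Rv1 cells (4 higher and 7 lower, beside 26.9%). The number in 22Rv1 ranged from 5 to 18 when 1 library was left out. In LNCaP, 21 of 34 were past the threshold, 8 higher and 13 lower, beside 62.1% of all genes. In each line the share was near that of all genes. The median change was -0.02, -0.04 and -0.004 in LNCaP, LNCaP95 and 22Rv1. By group, 7 of 13 genes downstream of AKT were lower and 1 higher in LNCaP95, and of 11 PI3-kinase and AKT genes 6 were higher and 1 lower, beside 33.2% of all genes higher and 33.7% lower. In LNCaP the corresponding counts were 5 lower and 3 higher of 13, and 3 lower and 2 higher of 10, beside 31.1% higher and 31.0% lower. In 22Rv1 they were 3 lower and 0 higher of 13, and 1 lower and 0 higher of 10, beside 12.7% higher and 14.3% lower. The 4 genes that were higher in 22Rv1, named after their values were seen, were IGF1, HTRA1, which encodes a protease that cleaves binding proteins, and the receptor-level genes GRB10 and PTPN1. The 7 that were lower there, named likewise, were FOXO4, EIF4EBP1, RPS6KB1, IGF2BP3, ADAM9, PIK3R3 and GRB2. The other binding proteins of the list (IGFBP1, IGFBP7, IGFBPL1 and IGFALS) stayed at or below 3.18 CPM and passed the filter in no line.

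Apart from IGF1, listed genes changed by more than 1 on the log2 scale, without overlap of the libraries, among proteases of the binding proteins and their inhibitors. ADAM12, a metalloprotease that cleaves IGFBP3 and IGFBP5, was at 2.35 to 3.04 CPM in LNCaP95 CTRL sh, 8.04 to 10.0 CPM in CPSF1 sh1 and 6.63 to 7.63 CPM in CPSF1 sh2 libraries, and rose by 1.67 ± 0.16 (adjusted p = 2.45e-06 in edgeR). STC1, an inhibitor of the binding protein protease PAPPA, was at 107 to 132, 59.0 to 63.2 and 49.1 to 51.4 CPM in the same groups, and fell by 1.07 on the log2 scale (SE 0.08, adjusted p = 5.20e-07 in edgeR). STC1 was also lower in LNCaP, at 21.1 to 26.1 CPM with CTRL sh against 1.73 to 5.34 CPM with knockdown, where it missed the filter. In 22Rv1, STC1 was under the filter, at 2.29 to 3.25 CPM with CTRL sh. There it overlapped the controls with CPSF1 sh1 (1.59 to 2.81 CPM) and lay below them with CPSF1 sh2 (1.23 to 1.81 CPM). ADAM12 was also under the filter in LNCaP, at 2.39 to 2.78 CPM with CTRL sh, 0.963 to 1.83 CPM with CPSF1 sh1 and 2.17 to 4.52 CPM with CPSF1 sh2. In 22Rv1, ADAM12 reached at most 0.243 CPM. PAPPA itself stayed at or below 0.273 CPM. Of the proteases and inhibitors tested in LNCaP95, 1 was higher and 3 were lower, beside 33.2% of all genes higher and 33.7% lower. Besides STC1, the lower ones were ADAM9 (-0.57 ± 0.05, adjusted p = 1.72e-06 in edgeR) and STC2 (-0.97 ± 0.10, adjusted p = 3.16e-06 in edgeR).

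The genes whose pattern was most like that of IGFBP3 over the 9 group means, on the log2(CPM + 1) scale and among 13480 genes, were MYH3 (Pearson r = 0.97), IMPDH1 (0.97), ORC2 (0.96), CHD5 (0.96) and MRM1 (0.95). These correlations are a description over 9 points that share control libraries and lines. MYH3, an embryonic myosin heavy chain, ran from 0.480 CPM in LNCaP CTRL sh to 10.8 CPM in LNCaP95 CPSF1 sh2. IMPDH1, an enzyme of guanine nucleotide synthesis, ran from 105 to 204 CPM between the same groups, a far smaller range than that of IGFBP3.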

How the data were processed

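Paired-end reads had been mapped by the authors with HISAT2 to GRCh37 (hg19), and fragments on Ensembl exons were counted by featureCounts of Subread, taking the reverse strand. The submitters' processing notes name HISAT2 2.1.0 and Subread 2.0.3. The deposited values are raw counts without normalization for 20268 gene symbols, and every count column was matched to a sample by its name. Chromosome names of the table were all found in the GRCh37 reference, and no gene ran past a chromosome end.

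Separate fits per line were made with edgeR 4.0.16 (R 4.3.3), after the study's methods. Genes above 2 CPM in all 9 libraries were kept, TMM-normalized and tested by the quasi-likelihood F-test (legacy form) over 3 CTRL sh and 6 CPSF1 sh libraries, with Benjamini-Hochberg adjustment over all genes tested and a threshold of 0.05. For the hairpins, each line was fitted with its 3 groups kept apart. The difference of the knockdown effect was fitted over 18 libraries of LNCaP95 and 22Rv1, with genes above 2 CPM in all 9 libraries of at least 1 line, and control levels over the 9 CTRL sh libraries likewise. Standard errors were derived from the F statistic. The scripts were tested on simulated data.

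Depth sets the precision, at 8515624 to 15904518 counts per library (median 11058723), of which mitochondrial genes took 1.49 to 2.30%. Replicates differed by a chi-square of 1.39 to 7.31 per degree of freedom, where counting error alone gives 1. In 22Rv1, CPSF1 sh1 replicate 3 gave 7.31 against replicate 1 and 4.56 against replicate 2, beside 1.97 between replicates 1 and 2. LNCaP95 CTRL sh replicates 1 and 2 gave 5.22. The members, the 50 other genes of the axis and the markers were chosen with earlier results of these data known. Among the 50, the text names the ligands and genes with an absolute log2 change above 1 and no overlap of the libraries in LNCaP95 or 22Rv1. Outside this rule, and after their values were seen, the genes called in 22Rv1 are named, higher and lower alike. ADAM9 and STC2 in LNCaP95 are named likewise. PAPPA, IGFBP1, IGFBP7, IGFBPL1 and IGFALS are named as under the filter. Genes like IGFBP3 were ranked by Pearson correlation among those above 2 CPM in at least 3 libraries. Alternatives covered the normalization, the filter, the test (DESeq2 1.42.0 and the newer quasi-likelihood form), the hairpins, the replicate number and each library left out. Protein sequences were not used here, and 2 further luminal markers are not reported here.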

Additional observations from a re-analysis of the deposited data

Results flagged for a closer look

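The effect of CPSF1 knockdown differed between LNCaP95 and 22Rv1 cells for 5 members in the test of the difference itself (22Rv1 minus LNCaP95, log2 scale, edgeR). IGFBP3 gave -2.16 and IRS1 -0.35, and IRS2 gave 0.66, IGF1R 0.86 and INSR 0.44, with adjusted p-values from 2.04e-06 to 0.0113. IGFBP5 gave -3.05, but it passed the filter of this fit through LNCaP95 alone, where it is high, and the value is a description. For IGFBP3 the difference depends on which hairpin is read, because the LNCaP95 values were 0.85 under CPSF1 sh1 and 3.18 under CPSF1 sh2, and the 22Rv1 values -0.23 and 0.65.

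Every knockdown library moved one way in LNCaP and the opposite way in another line for IGF1R, at 1.66 in LNCaP against -0.52 in LNCaP95, and for IRS1, at 0.90 in LNCaP against -0.30 in LNCaP95 and -0.64 in 22Rv1 cells. These differences from LNCaP were not tested, since the LNCaP contrast entered the choice of the members.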

How the results depend on the processing

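The number of members past the threshold stayed within 1.5 times its value under the other normalizations, filters and tests in each comparison. In 22Rv1 cells it went from 3 to 5 with CPSF1 sh2 libraries alone, and the number of members that differed between the hairpins there ranged from 1 to 4 when a library was left out, with 1 remaining without CPSF1 sh2 replicate 1 or replicate 3. IGFBP3 in 22Rv1 cells reversed, from 0.28 to -0.22 (edgeR adjusted p = 0.0181) with CPSF1 sh1 libraries alone. It passed at 0.65 with CPSF1 sh2 alone and at 0.21 with the hairpins averaged as separate groups (edgeR adjusted p = 0.00219). The count of other axis genes in 22Rv1, 11, was 17 with the hairpins as separate groups, 7 from CPSF1 sh1 and 22 from CPSF1 sh2 libraries alone. It was 5 and 6 without CTRL sh replicates 2 and 3, 7 without CPSF1 sh2 replicate 2, and 18 without CPSF1 sh1 replicate 3. The cause was not tested.

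Replicate numbers are shared by the groups. Correlations of same-numbered deviations ran from -0.24 to 0.28 in LNCaP95 and from -0.11 to 0.20 in 22Rv1. Different numbers gave -0.30 to 0.23 and -0.29 to 0.26 there. In LNCaP the same numbers gave -0.06 to 0.25 and different numbers -0.25 to 0.07. These ranges do not settle whether the numbers pair the samples. With the replicate number as a block, 7 members were called for LNCaP95 and 3 for 22Rv1 as without it, and the hairpin difference of IGF2R in 22Rv1 passed (0.22, edgeR adjusted p = 0.0345), which made 4 members there. The block changed no other call of a member. Calls were gained between the hairpins for INSR in LNCaP95 (-0.17, adjusted p = 0.0371 in edgeR, with library size alone, and without CTRL sh replicate 1 or 2), IGF2R in 22Rv1 without CPSF1 sh1 replicate 1 (0.32, adjusted p = 0.00164) and IRS2 in LNCaP without CPSF1 sh1 replicate 2 (-0.69, adjusted p = 0.0350), and for IGF2R with knockdown in 22Rv1 from CPSF1 sh2 libraries alone (0.17, adjusted p = 2.69e-04). Depth limits IGFBP4 and IGFBP6 and, in LNCaP cells, IGFBP5.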
